A study of Mus musculus with 12 samples.

Results

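Phase II conjugation enzymes attach a polar group to drugs, bile pigments, hormones and dietary compounds, so that the conjugate can be pumped out of the cell and excreted. The genes described here are the protein-coding genes whose symbols start with Ugt or Sult and a digit, or with Gst, a class letter (a, k, m, o, p, t or z) and a digit. They number 65 of the 54532 genes measured (22046 of them protein-coding), with 22 UDP-glucuronosyltransferases (UGT), 21 sulfotransferases (SULT) and 22 cytosolic and kappa-class glutathione transferases (GST). They were chosen by name and not by any measured value.

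RNA from 12 colon samples was sequenced, with 3 libraries in each of 4 groups. Both genotypes carried floxed Tmem173, the gene of STING, a sensor adaptor of cytosolic DNA. Tmem173fl/fl mice had no Cre, and Tmem173iΔmye mice also carried Lyz2-Cre ert2, a tamoxifen-dependent Cre recombinase made in cells that use the lysozyme 2 gene, which are mainly macrophages, monocytes and neutrophils. All groups, controls included, had 5 injections of tamoxifen (TAM). At 6 to 8 weeks of age the colitic mice of each genotype drank 2.5% to 3% dextran sodium sulfate (DSS), a polymer that damages the epithelial lining, over 7 days and then had 1 day of water, and the untreated mice drank water alone. The colitic Tmem173iΔmye samples carry the numbers 1, 2 and 5. The study's methods speak of 3 randomly selected samples per group, and the labels do not say how many animals a sample holds. Each sample is called a mouse here, and p-values measure the spread between these libraries, which may in part be technical.

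UGTs use UDP-glucuronic acid, SULTs use the sulfate donor PAPS and GSTs use glutathione. The gut epithelium holds all 3 families and is the first tissue to meet compounds from food and bacteria. UGTs sit in the endoplasmic reticulum, and most SULTs and GSTs are soluble in the cytosol.

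Library totals ran from 13823237 to 18718915 counts. Tmem173 itself lay at 6.23 to 10.7 RPKM in untreated Tmem173fl/fl mice, 6.35 to 9.27 in untreated Tmem173iΔmye mice, 16.4 to 19.1 in colitic Tmem173fl/fl mice and 10.3 to 20.8 in colitic Tmem173iΔmye mice, so the 2 genotypes overlapped under both conditions. RPKM is the count per kilobase of the gene, scaled to a common library size. The epithelial gene Epcam was at 250 to 1001 RPKM in the 12 libraries. Xist, the RNA made from the inactive X chromosome of females, had over 100 counts in untreated Tmem173fl/fl replicate 3, untreated Tmem173iΔmye replicate 3 and colitic Tmem173iΔmye replicate 5 and was near 0 in the other libraries. The distal colon gene Hoxb13 was at 39.5 to 114 RPKM in the untreated mice and 88.7 in colitic Tmem173iΔmye replicate 5, but at 12.99 and 9.561 in the other colitic Tmem173iΔmye mice and 0.278 to 2.24 in colitic Tmem173fl/fl mice. Hepatocyte markers summed to 2.003 to 22.18 RPKM, and 1 of the 7, Serpina1c, was at or under 3 counts in every library. Markers of pancreatic acinar cells summed to between 44.4 and 7314 RPKM and varied within every group. The part that sex, colon segment or attached tissue plays in the results was not tested.

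Of the 65 genes, 42 passed the filter on low values (0.1 FPKM or more in 3 or more of the 12 libraries), namely 12 UGTs, 9 SULTs and 21 GSTs. Another 16 had 0 counts in all libraries, and 7 had a few counts, at most 6 in a library. The 16 were Ugt1a8, Ugt1a9, Ugt1a10, Ugt2a2, Ugt2a3, Ugt3a1, Ugt3a2, Sult2a1 to Sult2a7, Sult3a1 and Sult3a2. A count of 0 in a library allows up to 3 counts. The 7 were Ugt2a1, Ugt2b37, Ugt2b38, Sult1c1, Sult2a8, Sult6b2 and Gstt4.

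Zeros in the Ugt1a genes need the gene structure beside them. The Ugt1a locus on chromosome 1 (GRCm38) holds 9 genes that each have upstream exon bases of their own and are spliced to the same last exons, so a read from those last exons cannot be given to 1 gene. In the GENCODE annotation of the same build, 3 exons belong to all 9 genes. Shown are the last 60 bases of the own exon, which tell the genes apart, of Ugt1a1, the bilirubin-conjugating enzyme, of Ugt1a7c, which had the most counts, and of Ugt1a9, which had none. The letters are those of the reference genome.
Ugt1a1 own exon, last 60 bases (chr1:88212812-88212871, plus strand): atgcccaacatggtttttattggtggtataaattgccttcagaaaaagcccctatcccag
Ugt1a7c own exon, last 60 bases (chr1:88095919-88095978, plus strand): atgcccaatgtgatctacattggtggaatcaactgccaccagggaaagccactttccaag
Ugt1a9 own exon, last 60 bases (chr1:88071619-88071678, plus strand): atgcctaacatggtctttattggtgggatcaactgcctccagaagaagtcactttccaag

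Ugt1a1 had 385 exon bases that belong to no other gene out of 2224, and Ugt1a9 had 879 of 2190. Over the 12 libraries the deposited counts summed to 14463 for Ugt1a7c, 1920 for Ugt1a1, 1202 for Ugt1a6a, 57 for Ugt1a2, 56 for Ugt1a6b and 23 for Ugt1a5. Ugt1a8, Ugt1a9 and Ugt1a10 summed to 0, although 909, 879 and 809 of their bases lie in no other gene. Ugt1a7c has 917 own bases in its first exon and 998 more at chr1:88219005-88220002, past the annotated ends of the other 8 genes, and the deposited counts do not tell which of these stretches they came from. Likewise 1920 of the 2142 own bases of Ugt1a6a lie between the shared exons. Per kilobase of own bases, in place of all exon bases, the mean of untreated Tmem173fl/fl mice was 47.3 ± 3.12 for Ugt1a7c, 13.8 ± 7.59 for Ugt1a1 and 2.87 ± 0.867 for Ugt1a6a (SD, n = 3). The order of these 3 genes was the same on either scale. Levels below are per kilobase of all exon bases, on which the Ugt1a genes read lower.

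**Figure D1:**
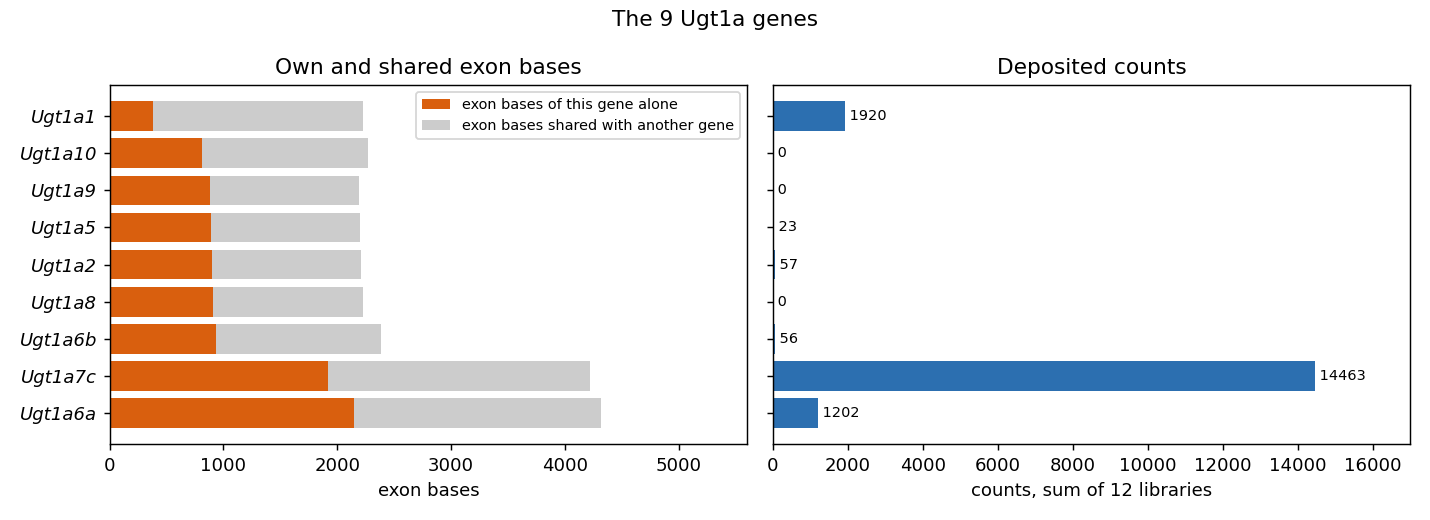
Left, the exon bases (x axis) of each of the 9 Ugt1a genes, split into those of that gene alone and those shared with another gene. Right, the deposited counts summed over the 12 libraries. Ugt1a7c holds 14463 counts and Ugt1a8, Ugt1a9 and Ugt1a10 hold 0 with 809 to 909 own bases each.

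Near-identical copies can also split or lose reads. Of all 50-base windows in its transcripts, 90.5% of those of Gsta1 occur in another gene (most in Gm3776), as do 54.3% of Gstp2 and 33.7% of Gstp1 (in each other), 49.8% of Gsta2, 41.7% of Ugt2b5 and 28.8% of Gstm3 (most in Gm8834). Ugt2a1 and Ugt2a2 share 98.8% and 94.5% of their exon bases. In all, 25 of the 65 genes had over 10% of their windows in other genes, and 14 had over 10% of their exon bases shared. Among the genes called in any comparison, these were Ugt1a1, Gsta1, Gstm3, Gstm1 (18.9% of windows) and Gstt3 (12.5%), while Sult1a1, Gstm2 and Gstm6 had 6.6%, 5.7% and 6.0%. Values of the genes above 10% are uncertain in that measure. For Sult1b1, Sult1d1, Sult1c2, Sult5a1, Ugt2b34 and Ugt2b35 the share of such windows was 0 to 1.4%.

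In untreated mice a handful of genes made up most of each family. In untreated Tmem173fl/fl mice, 5 genes were at 100 RPKM or more, 10 between 10 and 100, 17 between 1 and 10 and 10 below 1. Sult1a1, which sulfates phenols, came first at 171 ± 38.1 RPKM (SD, n = 3), then Gsto1, an omega-class enzyme that reduces dehydroascorbate and arsenic species, at 154 ± 7.66. Gstp1, the pi-class enzyme common in epithelia, was at 127 ± 23.0, Ugt2b34 at 117 ± 13.1 and Gstm1, a mu-class enzyme, at 116 ± 9.93. Sult1a1 and Gsto1 overlapped over the 3 mice, as did Gstp1, Ugt2b34 and Gstm1, so these neighbours could not be ordered, while Gsto1 lay above Gstp1 in each mouse.

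Sult1b1, which sulfates thyroid hormones and small phenols, and Sult1d1, which sulfates catecholamines, followed at 64.3 ± 9.47 and 62.1 ± 15.1 RPKM and could not be ordered. Gstm2 was at 40.0 ± 3.76, Gstm3 at 31.4 ± 4.22, Gstm5 at 23.6 ± 0.823 and Ugt1a7c at 21.5 ± 1.41. Over the libraries, the 3 UGTs of highest mean level (Ugt2b34, Ugt1a7c and Ugt2b35) held 74.8% to 97.9% of the summed UGT level and the 3 such SULTs (Sult1a1, Sult1b1 and Sult1d1) 84.2% to 95.1%. The 3 such GSTs (Gsto1, Gstp1 and Gstm1) held 59.5% to 68.3%, and the GSTs were spread over more genes.

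**Figure D2:**
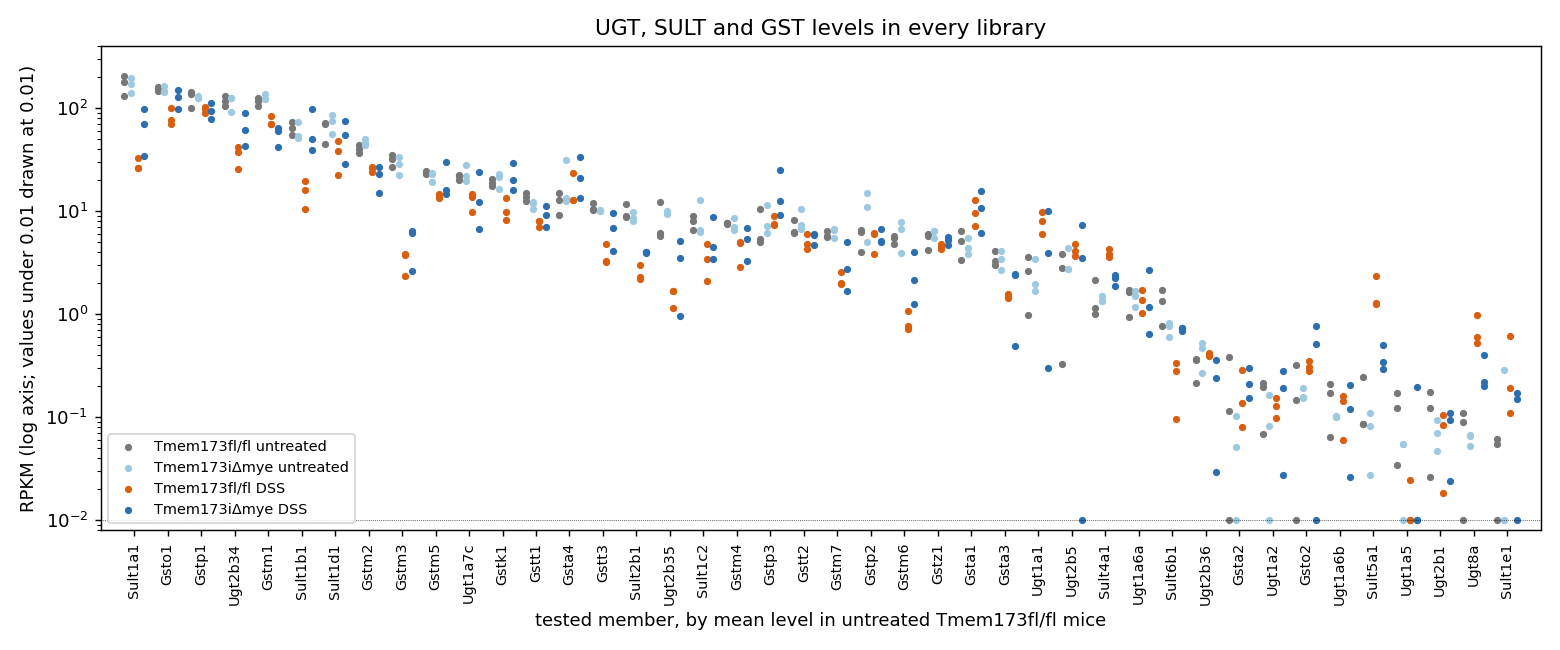
RPKM (log axis) of the 42 tested genes in each of the 12 libraries, 1 point per library and 1 colour per group, ordered by the mean in untreated Tmem173fl/fl mice. Sult1a1 has the highest mean in untreated Tmem173fl/fl mice, 171 RPKM, overlapping Gsto1, and the orange points of colitic Tmem173fl/fl mice lie below the others for Sult1b1, Sult2b1 and Sult6b1 and above them for Sult5a1 and Ugt8a.

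The first comparison asked what DSS colitis did in mice with intact STING. The leading SULT, Sult1a1, and the leading UGT, Ugt2b34, were among the genes that fell, while 5 less abundant genes rose. Of the 42 tested, 12 fell (28.6%, against 7.61% of all 24102 genes tested) and 5 rose (11.9%, against 14.9% of all genes tested), each at an adjusted p under 0.05 (edgeR quasi-likelihood test, Benjamini-Hochberg adjustment over all genes tested) and a change of 1 or more in either direction on the log2 scale. Among the 5 that rose, Sult5a1 and Ugt8a passed the filter on low values through their colitic libraries alone, so they had to be higher there, and nothing is read from the count of 5. The median log2 fold change of the 42 was -0.58, beside 0.03 over all genes tested. Another 8 had an adjusted p under 0.05 with a smaller change, all 8 lower.

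Of the 9 SULTs tested, 5 fell and 2 rose. Sult1a1 was at 130, 179 and 205 RPKM in the 3 untreated mice and at 26.1, 26.2 and 32.6 in the colitic mice. The groups were far apart, with a log2 fold change of -2.53 (SE 0.20, adjusted p = 1.17e-05), a 5.77-fold fall. Sult1b1 was at 64.7, 54.7 and 73.6 RPKM in untreated mice and at 16.1, 10.5 and 19.5 in colitic mice. That is a 4-fold fall (log2 -2.001, SE 0.22, adjusted p = 0.000104) with no overlap. Its chromosome 5 neighbour Sult1d1 (chr5:87554645-87569027, beside Sult1b1 at chr5:87513339-87538195) was at 44.6, 70.4 and 71.2 RPKM untreated and 38.0, 22.2 and 47.9 in colitic mice. These groups overlapped, and the change of -0.72 (SE 0.27) did not pass at an adjusted p of 0.0658.

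Sult2b1, which sulfates cholesterol, was at 11.7, 9.01 and 8.67 RPKM untreated and 2.30, 2.18 and 2.999 in colitic mice (log2 -1.90, SE 0.19, adjusted p = 5.17e-05). Sult1c2 went from 6.57, 8.07 and 9.03 to 3.46, 2.10 and 4.76 RPKM (log2 -1.14, SE 0.29, adjusted p = 0.0121). Its call was lost in 3 alternative settings, without the libraries high in Xist, untreated replicate 3 or colitic replicate 2. The less studied Sult6b1 was at 1.71, 0.765 and 1.33 RPKM untreated and 0.281, 0.334 and 0.0961 in colitic mice (log2 -2.29, SE 0.50, adjusted p = 0.00541). In all 3 genes each colitic mouse lay below each untreated mouse.

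The SULTs that rose were minor ones. Sult5a1 was at 0.0857, 0.245 and 0.0850 RPKM in untreated mice and at 1.26, 2.37 and 1.29 in colitic mice, a 12.3-fold rise (log2 3.62, SE 0.46, adjusted p = 0.000237). The log2 fold change was 4.30 without untreated replicate 2 and 3.23 without colitic replicate 2. Sult5a1 passed the filter on low values through its colitic libraries (2 of 6 untreated and 6 of 6 colitic libraries reached 0.1 FPKM), as did Ugt8a (1 of 6 and 6 of 6), so the p-values of both describe a difference that the filter favoured. Sult4a1, known best from brain, was at 1.15, 2.16 and 0.997 RPKM untreated and 4.29, 3.85 and 3.58 in colitic mice (log2 1.52, SE 0.30, adjusted p = 0.00314). Even after the rise both stayed under 5 RPKM and below Sult1a1.

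Of the 12 UGTs tested, 2 fell and 2 rose. Ugt2b34, the most abundant UGT here, was at 104, 117 and 130 RPKM untreated and 37.5, 25.7 and 41.7 in colitic mice (log2 -1.68, SE 0.20, adjusted p = 0.000148). Ugt2b35, in the same chromosome 5 cluster (chr5:87000860-87013275), was at 6.13, 5.70 and 12.3 RPKM untreated and 1.66, 1.14 and 1.66 in colitic mice (log2 -2.37, SE 0.32, adjusted p = 0.000344). Neither gene's groups overlapped. Ugt2b1, which lies between them, gave -0.59 and did not pass. Ugt2b5 in the same cluster was at 0.326, 3.83 and 2.83 RPKM untreated and 3.65, 4.13 and 4.84 in colitic mice and did not pass (log2 0.91, SE 0.58, adjusted p = 0.258).

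Within the Ugt1a locus, Ugt1a1 rose from 0.988, 3.59 and 2.59 to 7.92, 5.98 and 9.83 RPKM (log2 1.79, SE 0.39, adjusted p = 0.00519). Untreated replicate 1 was the low sample for both Ugt1a1 and Ugt2b5. In 1 fit of all 12 libraries the adjusted p of Ugt1a1 was 0.103. Ugt1a7c, at 19.84, 22.01 and 22.49 RPKM untreated and 13.7, 9.81 and 14.5 in colitic mice, had a change of -0.69 (SE 0.16, adjusted p = 0.00762), short of the fold threshold. Ugt8a, which adds galactose to ceramide rather than glucuronic acid to a drug, rose from 0, 0.0895 and 0.111 to 0.526, 0.595 and 0.991 RPKM (log2 3.38, SE 0.65, adjusted p = 0.00268). Like Sult5a1, Ugt8a passed the filter through its colitic libraries.

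Of the 21 GSTs tested, 5 fell and 1 rose. Of the falls, 3 were in the mu-class cluster of chromosome 3, where 7 genes lie within chr3:107895821-108044894. In order along the chromosome, the log2 fold changes were -0.69 for Gstm5, -1.38 for Gstm7, -2.59 for Gstm6, -3.19 for Gstm3, -0.57 for Gstm2, -0.56 for Gstm1 and -0.76 for Gstm4. All 7 had adjusted p-values under 0.05, from 5.77e-06 to 0.0322, but just the adjoining Gstm7, Gstm6 and Gstm3 passed the fold threshold.

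Gstm3 was at 35.2, 32.2 and 26.9 RPKM untreated and at 3.72, 2.35 and 3.79 in colitic mice, a 9.15-fold fall (SE 0.22 on the log2 scale, adjusted p = 5.77e-06). Gstm6 was at 5.71, 5.51 and 4.79 RPKM untreated and 0.763, 0.714 and 1.06 in colitic mice (SE 0.26, adjusted p = 4.64e-05). Gstm7 was at 6.43, 5.71 and 5.63 untreated and 2.54, 1.981 and 1.999 RPKM in colitic mice (SE 0.23, adjusted p = 0.00107). None of the 3 overlapped between groups. Gstm1, the most abundant of the cluster, went from 124, 118 and 105 to 70.2, 84.2 and 69.3 RPKM, also without overlap.

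Outside the cluster, Gstt3, a theta-class enzyme, went from 10.5, 11.9 and 10.2 to 4.75, 3.25 and 3.21 RPKM (log2 -1.47, SE 0.18, adjusted p = 0.000199). Gsta3, an alpha-class enzyme, went from 4.06, 2.98 and 3.26 to 1.47, 1.43 and 1.57 RPKM (log2 -1.14, SE 0.20, adjusted p = 0.0016). Its call was lost without untreated replicate 1, where the change was -0.9987. The alpha-class Gsta1 moved the other way, from 5.07, 6.44 and 3.34 to 9.58, 7.18 and 12.8 RPKM (log2 1.06, SE 0.30, adjusted p = 0.0205). Gsta1 sits close to the fold threshold, shares most of its sequence with Gm3776, and lost its call in 7 of the alternative settings.

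The abundant Gsto1 was at 158, 146 and 160 RPKM untreated and 75.8, 70.5 and 99.3 in colitic mice. The groups did not overlap, with a log2 fold change of -0.85 (SE 0.16, adjusted p = 0.00277) that is short of the threshold. Gstp1, at 136, 143 and 100 RPKM untreated and 97.3, 89.6 and 103 in colitic mice, overlapped between groups (log2 -0.32, SE 0.15, adjusted p = 0.132). The zeta-class Gstz1, which degrades tyrosine products, gave -0.17 (SE 0.17, adjusted p = 0.497).

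The summed level of each family was lower in each colitic than in each untreated Tmem173fl/fl mouse. UGTs summed to 133 to 173 RPKM untreated and 49.0 to 76.1 in colitic mice, SULTs to 260 to 370 and 70.0 to 113, and GSTs to 559 to 631 and 357 to 405. Markers of several kinds moved alongside. Of the 4 distal colon genes 2 fell, Hoxb13 (log2 -6.45, SE 0.67, adjusted p = 6.56e-05) and Hoxd13 (-2.30, SE 0.68, adjusted p = 0.0238). Hoxd13 overlapped between groups, at 2.07 to 18.1 RPKM untreated and 0.713 to 2.47 in colitic mice. The other 2 were not called and went apart. Hoxd12 was at 0.107 to 0.569 untreated and 0 to 0.128 colitic, and Hoxd11 at 0.209 to 0.593 and 0.550 to 0.759. Of 6 epithelial genes (Epcam, Cdh1, Krt8, Krt18, Krt19 and Cldn7) 4 fell and 0 rose, and their summed level went from 5037 to 6286 RPKM untreated to 1814 to 3197 in colitic mice. Of 9 colonocyte genes 6 fell and 1, Car1, rose, and the summed level, in which Lypd8 alone was 6698 to 8088 untreated and 1841 to 2786 in colitic mice, went from 9675 to 11830 to 4002 to 6014 RPKM. All 5 fibroblast, all 5 neutrophil and 4 of 5 macrophage genes rose, and 0 of 4 smooth muscle genes passed. Of the 4 tested squamous genes Krt5 rose, while Krt14 gave -0.83 and did not pass. Of the 4 adipocyte genes 2 rose. Plin1, not called, was at 0, 1.44 and 1.67 RPKM untreated and 0.245, 0.397 and 0.0879 in colitic mice. Cxcr2 and Ngp of neutrophils and Krt5 passed the filter on low values through their colitic libraries, so nothing is read from their rise. The hepatocyte genes went both ways, with Fgb higher (4.37) and Ttr (-2.56) and Apoa2 (-1.89) lower. Fgb passed the filter on low values through these colitic libraries alone, so it had to be higher there. No pancreatic acinar gene passed. In bulk RNA, fewer cells of a type and less RNA per cell cannot be told apart, and the part of cell makeup and colon segment in the enzyme levels was not tested.

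The genes that supply the donors did not all move alike. Of 5 genes of sulfate and PAPS supply, 3 fell: Papss1, which makes PAPS (log2 -1.18, SE 0.13), the sulfate transporter Slc26a2 (-1.20, SE 0.23) and Bpnt1, which clears the spent donor (-1.09, SE 0.15), with adjusted p-values of 9.11e-05, 0.00285 and 0.000367. The other PAPS synthase, Papss2, gave -0.70 (adjusted p = 0.0185), below the fold threshold. None of the 3 genes of UDP-glucuronate supply passed both thresholds, with Ugp2 at -0.77 and Ugdh at -0.30. Of 7 genes of glutathione synthesis and recycling 2 rose, the cystine carrier Slc7a11 (log2 3.48, SE 0.21) and Ggt1, which splits extracellular glutathione (3.89, SE 0.29). Gclc, which catalyses the first step of glutathione synthesis, gave 0.71 (adjusted p = 0.018) and Gclm -0.10.

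Of 5 glutathione transferases and related genes with other symbols, Mgst3 fell (log2 -1.01, SE 0.22) and none rose. Of 9 methyl- and acyl-conjugating enzymes 7 were tested, of which Nnmt (2.71, SE 0.29) and Inmt (2.78, SE 0.71) rose and As3mt fell (-1.18, SE 0.17). Of 7 efflux pumps of drugs and conjugates 1, Abcb1b, rose (log2 3.04, SE 0.21). Another 4 had adjusted p-values of 0.00193 to 0.0224 and stayed short of the fold threshold, with Abcc1 and Abcc4 at 0.77 and 0.59 and Abcc3 and Abcg2 at -0.82 and -0.59. Of 11 transcriptional regulators of these enzymes, Hnf4a, an epithelial and liver factor, fell (-1.32, SE 0.21, adjusted p = 0.000792). Ahr and Nr1i2, receptors for planar aromatics and for steroids and drugs, and Nfe2l2, the factor that acts on antioxidant response elements, gave 0.32, -0.24 and -0.23 and did not pass. Of 8 other target genes of Ahr and Nfe2l2, Cyp1b1 (3.70, SE 0.28) and Hmox1 (4.93, SE 0.43) rose, while Nqo1 (-0.34), Txnrd1 (0.23) and Srxn1 (0.06) did not pass.

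Promoters were read from RefSeq on GRCm38.p6 for 57 of the 65 genes, as 300-base windows from 250 bases before each start to 50 after it, 68 windows in all. The antioxidant response element core TGACNNNGC, searched on both strands, lay in 3 of the 68 windows (Gsta3, Gstm5 and Gstm7), or 4.41%, beside 12.4% of 32851 windows of all genes. The aryl hydrocarbon receptor core TNGCGTG lay in 3 (Gsta2, Sult1d1 and Ugt1a5), beside 5.07% of all windows. The HNF4 sequence CAAAGTCCA lay in 1, that of Sult1b1, beside 0.475%, and the HNF1 site in 0, beside 0.0609%. The motifs share no match here, and a match is a string of letters and not a site shown to be bound. Of the 12 genes that fell, 2 held the antioxidant core and 1 the HNF4 sequence.
Shown are the 250 bases before 1 start of 3 genes that fell, with the antioxidant core in capitals: Gsta3, which holds it 121 bases before its start, and the leading UGT and the SULT that differed between genotypes, which hold none of the searched letters before these starts. The HNF4 match of Sult1b1 lies 25 bases after its other start, which is not shown.
Gsta3 (chr1:21240335-21240584, plus strand): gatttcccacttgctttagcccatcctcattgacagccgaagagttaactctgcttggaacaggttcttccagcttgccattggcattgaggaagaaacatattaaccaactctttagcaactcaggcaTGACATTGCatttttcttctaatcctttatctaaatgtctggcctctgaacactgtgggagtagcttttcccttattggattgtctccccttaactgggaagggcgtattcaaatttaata
Ugt2b34 (chr5:86906938-86907187, minus strand): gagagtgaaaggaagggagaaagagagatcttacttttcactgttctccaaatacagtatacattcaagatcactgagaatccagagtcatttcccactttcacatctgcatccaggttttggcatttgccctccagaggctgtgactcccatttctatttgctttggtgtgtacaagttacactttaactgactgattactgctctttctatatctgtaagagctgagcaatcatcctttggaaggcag
Sult1b1 (chr5:87538196-87538445, minus strand): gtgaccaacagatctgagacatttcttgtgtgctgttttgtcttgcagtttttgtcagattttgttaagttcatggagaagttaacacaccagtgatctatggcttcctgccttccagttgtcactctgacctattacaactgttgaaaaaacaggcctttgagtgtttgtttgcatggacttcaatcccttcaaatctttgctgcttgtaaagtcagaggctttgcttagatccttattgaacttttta

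The second comparison asked what DSS did in mice with Tmem173 targeted in myeloid cells. Of the 42 tested genes, 4 fell (9.5%, against 0.597% of all genes tested) and 0 rose (against 1.48%). With the fold threshold and an unadjusted p under 0.05, edgeR gave 3 higher genes, Gsta1, Sult5a1 and Ugt8a, and DESeq2 with adjustment gave 2 and limma 0. Sult5a1 and Ugt8a passed the filter on low values through their colitic libraries, which favoured a rise. The share of all genes in these settings is not given here, so nothing is read from these counts. The 4 falls were those of Gstm3, Gstm1, Gstm2 and Sult2b1.

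Gstm3 was at 33.1, 22.3 and 28.9 RPKM in untreated and 2.61, 6.08 and 6.44 in colitic Tmem173iΔmye mice (log2 -2.48, SE 0.34, adjusted p = 0.00736). Gstm1 was at 135, 123 and 123 RPKM untreated and 41.9, 59.4 and 64.3 in colitic mice (log2 -1.21, SE 0.21, adjusted p = 0.0193). Gstm2 was at 43.5, 45.9 and 50.5 untreated and 14.9, 23.0 and 26.5 in colitic mice (log2 -1.12, SE 0.23, adjusted p = 0.0356). Sult2b1 was at 9.82, 8.64 and 8.01 untreated and 3.97, 3.97 and 3.93 in colitic mice (log2 -1.16, SE 0.20, adjusted p = 0.0181). In each gene all colitic mice lay below all untreated mice, and Sult2b1 was alike in the 3 colitic mice to within 0.0203 RPKM (SD). Each of the 4 calls was lost when any 1 untreated Tmem173iΔmye library was left out, and over all settings that lost 1 of them its adjusted p ran from 0.0511 to 0.182.

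Other genes called in Tmem173fl/fl mice were apart between conditions here without passing. Ugt2b34 was at 124, 124 and 90.9 RPKM in untreated and 42.3, 88.4 and 60.5 in colitic Tmem173iΔmye mice (log2 -0.83, SE 0.28, adjusted p = 0.177). Ugt2b35 was at 10.03, 9.538 and 9.271 untreated and 0.955, 5.17 and 3.52 in colitic mice (-1.58, SE 0.46, adjusted p = 0.121). Gstm7 was at 5.50, 6.51 and 6.68 untreated and 1.69, 2.76 and 5.04 in colitic mice (-0.98, SE 0.39, adjusted p = 0.258). In each of these genes all colitic mice lay below all untreated mice, and replicate 1 was lowest.

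Gstt3 was nearly level in untreated Tmem173iΔmye mice, at 10.2, 10.1 and 10.06 RPKM, and at 4.08, 6.87 and 9.51 in colitic mice (log2 -0.57, SE 0.28, adjusted p = 0.362). Gsta3 was at 4.09, 2.66 and 3.42 untreated and 0.492, 2.44 and 2.38 in colitic mice (-0.94, SE 0.49, adjusted p = 0.398). Neither gene's groups overlapped. Sult1c2, at 6.51, 12.7 and 6.22 untreated and 3.44, 4.52 and 8.85 in colitic mice, overlapped (-0.60, SE 0.40, adjusted p = 0.529). Gsto1 was at 145, 162 and 144 untreated and 97.4, 128 and 148 in colitic mice, with overlap (-0.28, SE 0.21, adjusted p = 0.589). Gstp1 was at 126, 125 and 130 untreated and 77.9, 93.7 and 111 in colitic mice, without overlap (-0.43, SE 0.19, adjusted p = 0.314). Among the markers, 3 of 5 neutrophil genes rose, S100a8 (log2 4.96), S100a9 (4.52) and Cxcr2 (5.52). Cxcr2 was at 0 to 0.0497 RPKM in all untreated mice and passed the filter on low values through its colitic libraries, so nothing is read from its rise. Mrc1 of macrophages (1.0965) and Dcn of fibroblasts (1.36) also rose. Of 9 colonocyte genes 1 fell, Aqp8 (-1.59), as did the hepatocyte gene Alb (-2.85). No epithelial or distal colon gene was called. Of the Ahr and Nfe2l2 target genes, Cyp1b1 (1.72) and Hmox1 (1.46) rose. The part of these changes in the enzyme levels was not tested.

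Colitic Tmem173iΔmye mice differed more among themselves. Over the 31 tested genes with a mean of 1 RPKM or more in the 12 libraries, the median coefficient of variation was 42.5% in this group, beside 16.4% and 16.9% in the untreated groups and 19.9% in colitic Tmem173fl/fl mice. Replicate 1 was the lowest of the group for 23 of the 31 genes, and replicate 5 the highest for 19. Summed SULT levels were 113, 234 and 238 RPKM in replicates 1, 2 and 5, and summed GST levels 329, 440 and 543. The UGTs ran in another order, at 65.0, 139 and 72.3 RPKM.

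Ugt2b34 had that same order, at 42.3, 88.4 and 60.5 RPKM in replicates 1, 2 and 5, while Ugt1a7c was at 12.2, 23.7 and 6.75, lowest in replicate 5. Of the 12 tested UGTs, 7 were lowest in replicate 5, 2 in replicate 1 and 2 in replicate 2, and Ugt1a5 was at 0 in both replicates 1 and 5. In replicate 5, Ugt2b5 had 0 RPKM, Ugt1a1 0.300 and Ugt2b36 0.0295, beside 3.53, 3.94 and 0.242 in replicate 1 and 7.33, 10.02 and 0.363 in replicate 2. Replicate 5 is the colitic library with high Xist, with Hoxb13 at 88.7 RPKM beside 39.5 to 114 in untreated mice. Of the other distal colon genes, Hoxd13 was at 73.9 RPKM in replicate 5 and 0.713 to 35.5 in the other 11 libraries, Hoxd11 at 3.23 and 0.185 to 2.64, and Hoxd12 at 1.85 and 0 to 3.54. Their part in the UGT levels was not tested.

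**Figure D3:**
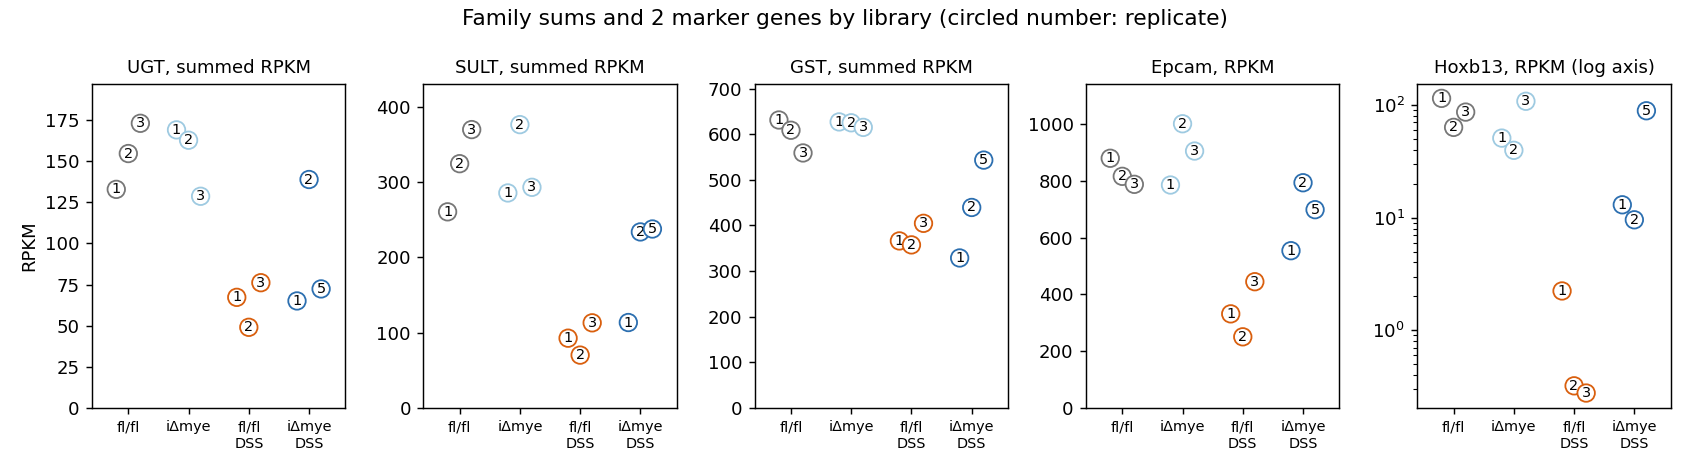
Summed RPKM of the UGT, SULT and GST genes and RPKM of the epithelial gene Epcam and the distal colon gene Hoxb13 (log axis) in each library, by group, with the replicate number in each circle. Colitic Tmem173fl/fl mice lie at 70.0 to 113 summed SULT RPKM, and colitic Tmem173iΔmye mice spread from 113 to 238.

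The effects of DSS in the 2 genotypes come from separate mice. Of the 17 genes called in Tmem173fl/fl mice, 16 had an estimate of the same sign in Tmem173iΔmye mice, and 16 had a smaller one, and 2 (Gstm3 and Sult2b1) were called in both. The exception in sign was Sult1b1, at 0.07 (SE 0.32), and the exception in size was Gsta1, at 1.25 (SE 0.37, adjusted p = 0.132). Sult5a1 and Ugt8a, which passed the filter through their colitic libraries, are among the 17, and nothing is read from their shared sign. For the 12 genes that fell in Tmem173fl/fl mice, the median log2 fold change was -1.95 there and -0.96 in Tmem173iΔmye mice. Those 12 were picked by their change in the first genotype, which by itself favours the larger value there. Across the 42 genes the 2 sets of estimates had a Pearson r of 0.688, given as a description, as genes are not independent. Without Ugt1a5, with 23 counts in the 12 libraries, it was 0.767. Both values include Sult5a1, Ugt8a and Sult1e1, which passed the filter through their colitic libraries, so that a rise was favoured.

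Gstm1 and Gstm2 had the larger estimates in Tmem173iΔmye mice, -1.21 and -1.12 beside -0.56 and -0.57 in Tmem173fl/fl mice. The tests of the difference gave -0.57 (SE 0.24, adjusted p = 0.232) and -0.48 (SE 0.26, adjusted p = 0.355) and did not pass. So Gstm1 and Gstm2, called in 1 genotype alone, were not shown to differ between them.

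**Figure D4:**
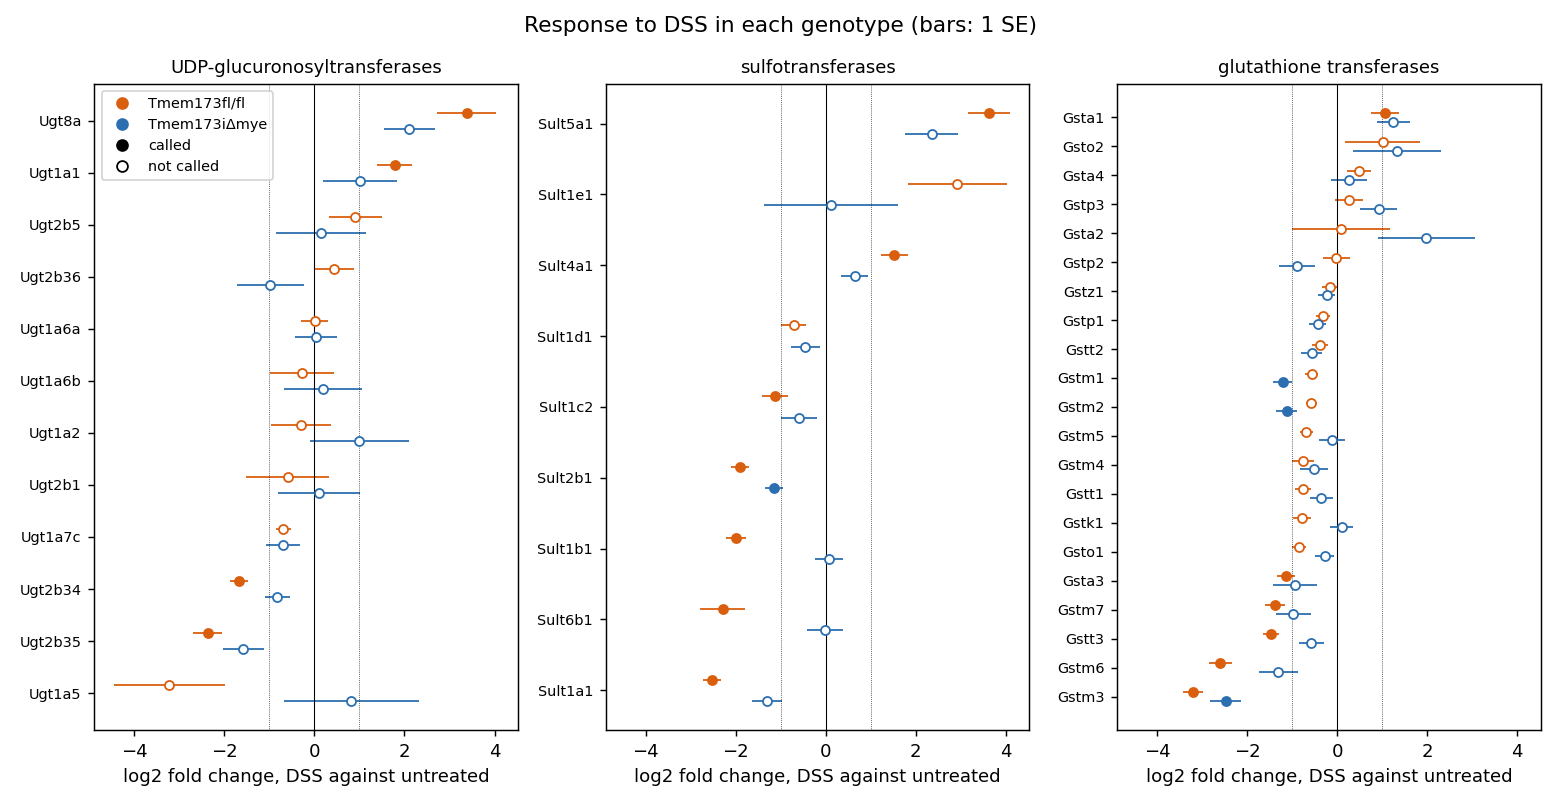
Log2 fold change of DSS against untreated (x axis) with 1 SE for the tested UGT, SULT and GST genes, orange for Tmem173fl/fl and blue for Tmem173iΔmye mice, filled where called. Sult1b1 stands at -2.001 in the first genotype and 0.07 in the second, and Gstm3 is filled in both, at -3.19 and -2.48.

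The test of whether the DSS effect differed between genotypes, over all 12 libraries, called 1 of the 42 genes higher (2.4%, against 0.934% of all genes tested) and 0 lower (against 1.61%). With an unadjusted p under 0.05 and the fold threshold it gave 4 genes, all higher, and DESeq2 gave 2 and limma 0. For these settings too the share of all genes is not given, and nothing is read from the counts. The gene called was Sult1b1, with a difference of 2.14 on the log2 scale (SE 0.43, adjusted p = 0.0208). Its RPKM was 53.5, 72.8 and 50.8 in untreated Tmem173iΔmye mice and 39.5, 49.6 and 96.8 in the colitic ones (replicates 1, 2 and 5), against the 4-fold fall in Tmem173fl/fl mice. The colitic Tmem173iΔmye mice overlapped the untreated ones, with replicate 5 above all other libraries.

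Without the libraries high in Xist, the difference for Sult1b1 was 1.42 with an adjusted p of 0.122. The call was lost in 8 alternative settings, among them those without replicate 1 or 3 of either untreated group or replicate 1 or 2 of colitic Tmem173fl/fl mice, with adjusted p-values from 0.0502 to 0.122. Of the 9 colonocyte genes, 3 were also called higher in this test, Slc26a3, Car4 and Lypd8 (1.86, 2.15 and 1.73). The other 6 did not pass, with Car1 at -0.65 and the rest from 0.25 (Guca2a) to 1.08 (Cdhr5). Of the other markers, Hoxb13 (5.69, SE 1.19, adjusted p = 0.0247) and the epithelial Cdh1 (1.20, adjusted p = 0.0468) were also called higher, and Mrc1 of macrophages (-2.08) and Col1a1, Col3a1 and Dcn of fibroblasts (-1.72, -1.78 and -1.91) lower. The colonocyte sum was 10490 to 10870 RPKM in colitic Tmem173iΔmye mice and 4002 to 6014 in colitic Tmem173fl/fl mice, with Lypd8 making up 58.5% to 83.1% of it in the former. Gene by gene, 8 of the 9 lay above all colitic Tmem173fl/fl mice in replicates 1 and 2 and 6 of the 9 in replicate 5, where Car1 and Guca2a lay below them. The epithelial sum was 3843 to 4870 RPKM in the first and 1814 to 3197 in the second. Their part in the result for Sult1b1 was not tested.

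Sult6b1 came closest to the call among the rest, with a difference of 2.35 (SE 0.62, adjusted p = 0.0599). It was at 0.771, 0.817 and 0.594 RPKM in untreated and 0.738, 0.732 and 0.686 in colitic Tmem173iΔmye mice. Sult1a1 gave 1.28 (SE 0.42, adjusted p = 0.125). It was at 138, 194 and 170 RPKM untreated and 34.2, 97.3 and 70.3 in colitic Tmem173iΔmye mice, which did not overlap (log2 -1.32, SE 0.33, adjusted p = 0.0803).

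The third comparison set colitic Tmem173iΔmye against colitic Tmem173fl/fl mice, which shares its libraries with the tests above and is no separate evidence. It called 1 gene higher in Tmem173iΔmye mice (2.4%, against 0.822% of all genes tested) and 1 lower (2.4%, against 1.99%). Sult1b1 was 4.02-fold higher (log2 2.01, SE 0.37, adjusted p = 0.0304), at 39.5, 49.6 and 96.8 RPKM against 16.1, 10.5 and 19.5. Sult5a1 was 4.35-fold lower (log2 -2.12, SE 0.39, adjusted p = 0.0311), at 0.4999, 0.2957 and 0.343 RPKM against 1.26, 2.37 and 1.29. In neither gene did the groups overlap. Both calls were lost without any 1 of the colitic Tmem173fl/fl libraries or without colitic Tmem173iΔmye replicate 2, and the Sult5a1 call also without replicate 5, with adjusted p-values over all settings that lost a call from 0.0604 to 0.131.

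Several genes were near these 2 without passing. Sult1a1 was at 34.2, 97.3 and 70.3 RPKM in colitic Tmem173iΔmye mice and 26.1, 26.2 and 32.6 in colitic Tmem173fl/fl mice (log2 1.23, SE 0.33, adjusted p = 0.0845). Gstk1, the mitochondrial and peroxisomal kappa-class enzyme, was at 15.9, 20.1 and 29.5 against 9.88, 8.22 and 13.5 (log2 1.04, SE 0.29, adjusted p = 0.0905). Gstm6 was at 1.25, 2.158 and 3.998 against 0.763, 0.714 and 1.06 (1.54, SE 0.46, adjusted p = 0.109). Sult4a1 was at 2.24, 1.88 and 2.39 against 4.29, 3.85 and 3.58 (-0.85, SE 0.25, adjusted p = 0.105). Ugt8a was at 0.220, 0.398 and 0.201 against 0.526, 0.595 and 0.991 (-1.37, SE 0.43, adjusted p = 0.123). Sult6b1 was at 0.738, 0.732 and 0.686 against 0.281, 0.334 and 0.0961 (1.55, SE 0.50, adjusted p = 0.136). In each of these genes the adjusted p missed the threshold. Ugt1a1, at 3.94, 10.02 and 0.300 against 7.92, 5.98 and 9.83, overlapped (-0.75, SE 0.83).

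Among the other genes of the pathway, Nnmt (log2 -1.49, SE 0.29), Cyp1b1 (-1.22, SE 0.22) and Hmox1 (-3.10, SE 0.43) were lower when myeloid Tmem173 was targeted, with adjusted p-values of 0.0337, 0.0303 and 0.0167. None of the genes of PAPS, UDP-glucuronate or glutathione supply was called. Hoxb13 was higher in colitic Tmem173iΔmye mice (5.28, SE 1.13, adjusted p = 0.0455), 4 of 5 neutrophil and 4 of 5 fibroblast genes were lower, and 3 of 9 colonocyte genes were higher. Mrc1 of macrophages (-1.74) and the hepatocyte genes Apoa1 (-4.49) and Fgb (-4.42) were also lower, while the other hepatocyte genes tested were not called. Fgb was at 0.455 to 1.20 RPKM in colitic Tmem173fl/fl mice and at 0 to 0.0795 in the other groups. It passed the filter on low values through that group alone, so nothing is read from its direction. Apoa1 was at or under 3 counts in every colitic Tmem173iΔmye library. Their part in the enzyme differences was not tested.

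**Figure D5:**
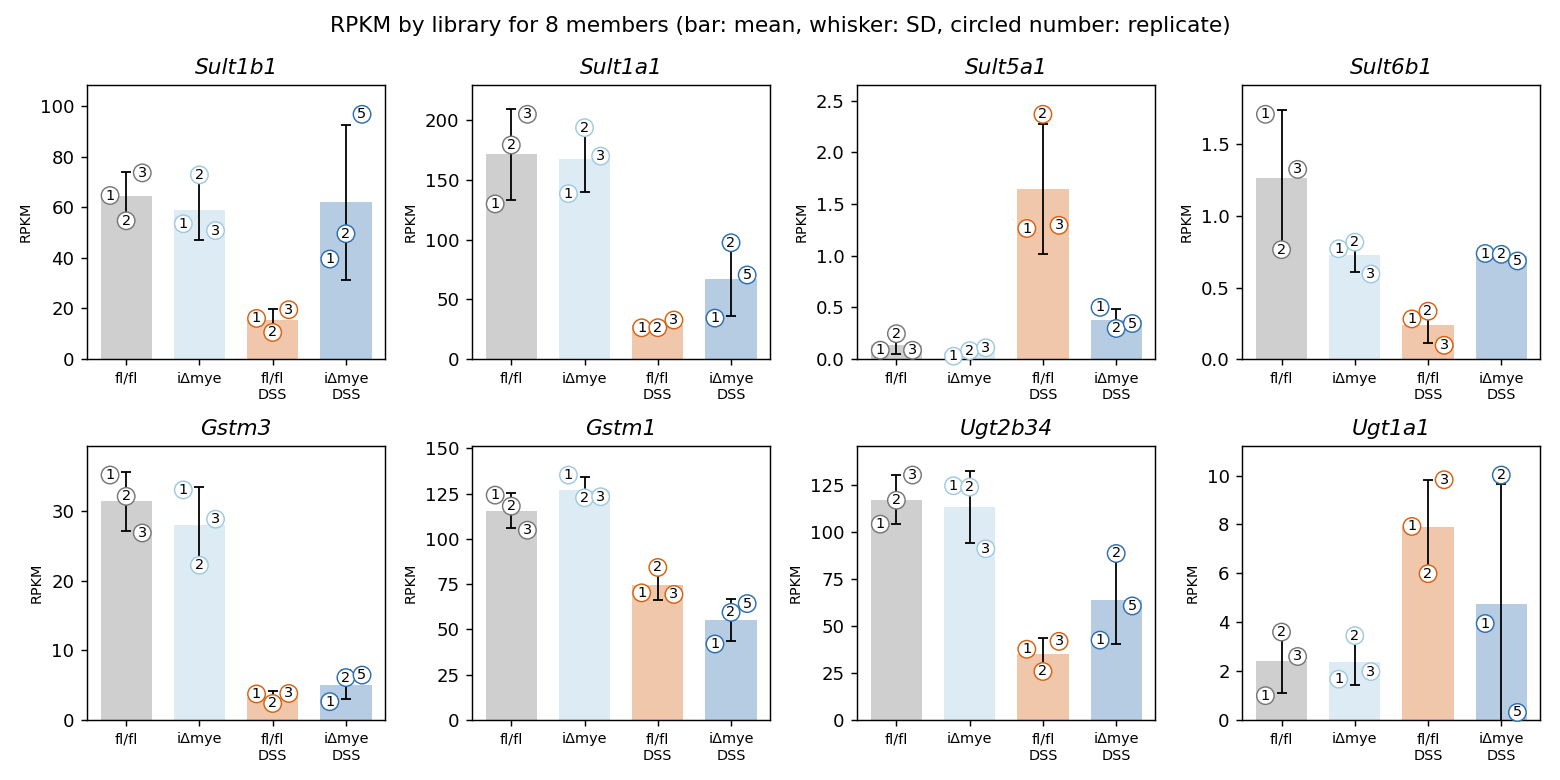
RPKM of 8 genes in each library, as the mean (bar) and SD (whisker) of each group of 3, with the replicate number in each circle. Sult1b1 in colitic Tmem173iΔmye mice spans 39.5 to 96.8 RPKM, above the 10.5 to 19.5 of colitic Tmem173fl/fl mice, and Ugt1a1 spans 0.300 to 10.02.

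The last comparison set the untreated genotypes side by side. Of the 42 genes, 0 were called, as were 0 of all 24102 genes tested (0%, with 720 genes at an unadjusted p under 0.05) by edgeR, and of the 42 DESeq2 and limma also called 0. The 1 gene among the 42 with an unadjusted p under 0.05 was the pi-class Gstp2 (log2 0.90, SE 0.36, unadjusted p = 0.0254, adjusted p = 1), at 6.49, 4.04 and 6.26 RPKM in Tmem173fl/fl and 15.1, 5.055 and 11.01 in Tmem173iΔmye mice. These overlapped, and 54.3% of the windows of Gstp2 occur in other genes. For the abundant genes the estimates were -0.03 (SE 0.18) for Sult1a1, -0.03 (SE 0.13) for Gsto1, -0.04 (SE 0.16) for Ugt2b34, -0.12 (SE 0.17) for Sult1b1 and 0.01 (SE 0.16) for Gstp1.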

How the data were processed

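Total RNA of colon was made into poly(A) libraries. The authors deposited whole-number counts and FPKM values per gene. Per the labels, the submitters' processing notes name CASAVA 1.8, fastp, HISAT2 2.0.5, featureCounts 1.5.0-p3 and DESeq2 1.20.0, with GRCm38 (mm10). The use of strand and the handling of reads on 2 genes are not given in the sources used here. The deposited FPKM per gene served for the filter. The authors also deposited group means, fold changes and p-values of their own comparisons, which were not used. The counts were tested with edgeR 4.0.16 (R 4.3.3), quasi-likelihood test, TMM scaling, on the 24102 genes that reached 0.1 FPKM in 3 or more of 12 libraries, fitting the groups compared (the interaction used all 12). The SE is the log2 fold change over the square root of F. A gene was called when its p, adjusted by Benjamini-Hochberg over all genes tested, was under 0.05 and its log2 fold change was 1 or more in size. The script was tested on simulated data. RPKM here is the TMM-scaled CPM per kilobase of gene. The named genes were those called in any comparison and the 3 most abundant of each family, 23 in all, with some further genes chosen after their values were seen. Alternatives included DESeq2 1.42.0, limma 3.58.1 on log2(FPKM + 0.1), other filters and scalings, and left-out libraries. Genes and lists were chosen with earlier results of these data known. Exon sharing used GENCODE exons on GRCm38, in which 61 of the 65 genes had the deposited start and end. The library totals, 13823237 to 18718915, put the floor of 3 counts per library at 0.142 to 0.227 TMM-scaled CPM, and floors cover counting error only. The sequence of the exons common to the Ugt1a genes is not reported here.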

Additional observations from a re-analysis of the deposited data

Results flagged for a closer look

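Sult1b1 stood out because its response to DSS differed between the genotypes in the test of that difference (2.14 on the log2 scale, SE 0.43, edgeR adjusted p = 0.0208). It fell in all 3 colitic Tmem173fl/fl mice to 10.5 to 19.5 RPKM, from 54.7 to 73.6 in the untreated ones, and was at 39.5 to 96.8 in colitic Tmem173iΔmye mice, beside 50.8 to 72.8 untreated. The call was lost in 8 alternative settings, and 3 of 9 colonocyte genes (Slc26a3, Car4 and Lypd8) were called in the same direction. So were Hoxb13 (5.69) and Cdh1 (1.20), while Mrc1, Col1a1, Col3a1 and Dcn were called in the other.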

How the results depend on the processing

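For DSS in Tmem173fl/fl mice the count of 17 genes stayed between 15 and 19 in every setting run, leave-one-out included. The other counts moved more. For DSS in Tmem173iΔmye mice, 4 genes became 7 with no filter, 9 with DESeq2, 0 with limma on log2(FPKM + 0.1) and 10 with unadjusted p-values, and leaving out 1 library gave 0 to 10 (0 without any 1 untreated library, 10 without colitic replicate 5). Between colitic genotypes, 2 became 4 with no filter, 5 with DESeq2, 0 with limma, 6 in 1 fit of all 12 libraries, 1 without the libraries high in Xist and 7 with unadjusted p-values, and leaving out 1 library gave 0 to 6 (0 without any 1 colitic Tmem173fl/fl library or colitic Tmem173iΔmye replicate 2, 1 without replicate 5, 6 without replicate 1). For the difference in the DSS effect, 1 became 2 with no filter, 2 with DESeq2, 0 with limma, 0 without the libraries high in Xist and 4 with unadjusted p-values, and leaving out 1 library gave 0 to 7 (7 without colitic Tmem173iΔmye replicate 1, and 0 without replicate 1 or 3 of either untreated group or replicate 1 or 2 of colitic Tmem173fl/fl mice). The cause of these moves was not tested. The untreated genotypes gave 0 throughout. No gene changed sign in a comparison that called it. Genes not called there were not followed over the settings.

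The labels do not say whether libraries with the same number are related. The correlation of their deviations ran from -0.172 to 0.202 over 15 pairs, and from -0.432 to 0.304 over 39 other pairs. A shared litter or batch was not tested. With the replicate number as a block, the counts were 17 for DSS in Tmem173fl/fl mice and 0 for untreated genotypes. They were 11 for DSS in Tmem173iΔmye mice, 2 for colitic genotypes and 1 for the difference. Colitic Tmem173iΔmye replicate 5 shares its number with no other library, so it did not add to the tested effect in these last counts. In the tests that gave 11 and 2, replicate 3 of the other group had no partner either. Those counts rest on replicates 1 and 2 alone and do not check pairing over all libraries.

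Of the calls in Tmem173fl/fl mice, Gsta1 was lost in 7 settings, Sult1c2 in 3, and Gsta3 and Ugt1a1 in 1 each. With 3 libraries per group, genes near 0.1 RPKM rest on a few counts and their fold changes are imprecise.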
